A study of Mus musculus with 12 samples.

Results

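The genes encoding the m6A methyltransferase (writer) machinery were examined in wild-type and Ythdf2-/- neurospheres. They are Mettl3, Mettl14, Wtap, Rbm15, Rbm15b, Zc3h13, Cbll1 and Mettl16, taken by symbol from a fixed list. All 8 were found among the 24525 genes of the count tables and 0 symbols were absent. All 8 also passed the filter on low counts, which left 13112 genes to test.

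N6-methyladenosine (m6A) is placed on mRNA in the nucleus by a complex in which Mettl3 transfers the methyl group from S-adenosylmethionine and Mettl14 holds the RNA substrate. Wtap, Zc3h13, Cbll1 (Hakai) and Virma form the adaptor part that keeps the catalytic pair in nuclear speckles, and Rbm15 and Rbm15b bind RNA and recruit the complex. Mettl16 is a separate methyltransferase that modifies U6 small nuclear RNA and the mRNA of Mat2a. The mark is read by YTH proteins, among which Ythdf2 promotes decay of methylated mRNA, and in the developing brain loss of the writer is known to disturb the cell cycle and differentiation of neural progenitors.

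The values are RNA-seq read counts of 3 wild-type and 3 Ythdf2-/- input libraries, that is, mRNA sheared by sonication and set aside before m6A immunoprecipitation. Neurospheres are free-floating cultures of neural stem/progenitor cells (NSPCs), here from the forebrain of E14.5 C57BL/6 embryos at passage P1, kept in medium with EGF, bFGF, N2 and B27 lacking vitamin A, and with no treatment in either group. Ythdf2-/- embryos came from intercrosses of heterozygotes that carried a deletion of the 5′ UTR and exon 1 of Ythdf2, made by crossing a CRISPR-Cas9 LoxP allele to mice with ubiquitous Cre. The paper reports by PCR and western blot that Ythdf2 was depleted in Ythdf2-/- embryos. The study calls the 3 libraries per genotype biological replicates, but how many embryos went into each culture is not given in the sources used here. The design compares wild-type with Ythdf2-/- cultures and asks, for these genes, whether the writer transcripts differed when the reader was missing.

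The libraries held 11029827 to 13185778 counted reads. Ythdf2 itself had 840, 961 and 999 reads in the wild-type libraries and 137, 198 and 138 in the Ythdf2-/- libraries, so the labels matched the targeted gene in 6 of 6 libraries (log2 fold change -2.66 ± 0.183, SE; edgeR's quasi-likelihood test, adjusted p = 0.0547 over all genes tested; DESeq2, adjusted p = 8.61e-47; -2.54 without the wild-type replicate 3 described next). All 8 neural progenitor markers examined (Sox2, Nes, Pax6, Vim, Fabp7, Hes1, Hes5 and Sox9) had at least 10 reads in every library, and their summed level was 3737.6 to 6573.6 CPM (reads per 1000000 counted reads, with library sizes scaled by TMM) in wild type and 4928.9 to 6622.0 in Ythdf2-/-. The lowest of these sums, 3737.6, was that of wild-type replicate 3, where Nes, Vim and Fabp7 were at their lowest and Sox2, Pax6, Hes1, Hes5 and Sox9 at their highest of the 6 libraries. Microglia and macrophage markers (6 genes, 5.03 to 8.33 CPM in sum) and endothelial markers (4 genes, 0.814 to 1.62 CPM) were near 0, with Ptprc and Cldn5 at 0 reads in all 6 libraries. Wild-type replicate 3 stood apart, with a mean Spearman correlation of 0.8997 with the other libraries against 0.9616 to 0.9698 for the others. In it the 6 proliferation markers summed to 124.1 CPM against 1619.8 to 2395.7 in the other libraries, the 5 astroglial markers to 5008.2 against 953.6 to 1674.3, and the 6 neuronal markers to 2356.4 against 1275.1 to 1692.7. The astroglial sum was high mainly through Gfap (33286 reads) and Aqp4 (12091), and of the oligodendrocyte lineage genes Mbp (6262) was high while Olig1 (5978) and Olig2 (3538) were at their lowest in it. Of the 5 mesenchymal markers only Pdgfrb (31.8 CPM there) exceeded 0.685 CPM in any library, and Col1a1 and Col3a1 were at 0 reads in that library. The genotype comparison of each writer gene and m6A pathway gene named is therefore given with all 6 libraries and without that library. In these bulk samples, fewer cells of a type and less RNA per cell cannot be told apart.

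No writer gene passed the test between genotypes. Of the 8 genes, 0 had an adjusted p under 0.05 by edgeR's quasi-likelihood test, against 0.0% of all genes tested, and 0 had an unadjusted p under 0.05, against 3.63% of all genes. The fold changes lay between -0.18 and 0.14 on the log2 scale (Ythdf2-/- relative to wild type), with 3 genes above 0 and 5 below and a median of -0.04, where the median of all genes tested was -0.01. The medians were -0.07 and 0.01 without wild-type replicate 3. The median size of the change was 0.0813 over the 8 genes and 0.157 over all genes tested, or 0.148 and 0.209 without wild-type replicate 3, where the 8 values ran from -0.26 to 0.33. Taken as a sum, the 8 genes made up 396.8, 384.7 and 424.3 CPM in the wild-type libraries and 407.0, 389.7 and 408.7 CPM in the Ythdf2-/- libraries, or 401.9 ± 20.3 against 401.8 ± 10.5 (SD, n = 3 each). The summed ranges overlapped and their means differed by less than either SD. The CPM plots show the 6 values behind each gene.

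**Figure D1:**
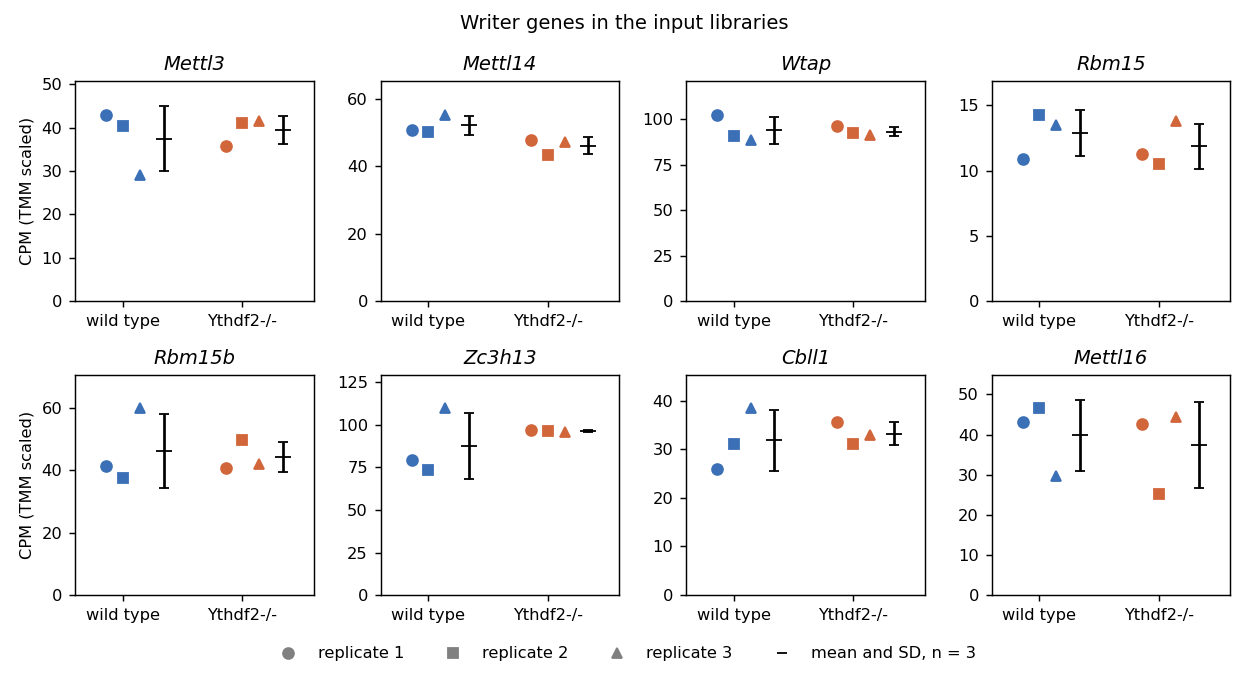
CPM (TMM scaled; y axis from 0) of the 8 writer genes in each input library, wild type in blue and Ythdf2-/- in orange, with a marker shape for each replicate and the mean and SD (n = 3) beside the points. The groups overlap for every gene except Mettl14, and wild-type replicate 3 (blue triangle) is the lowest wild-type point for Mettl3, Wtap and Mettl16 and the highest for Mettl14, Rbm15b, Zc3h13 and Cbll1.

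Mettl3, the catalytic subunit, lies at chr14:52294841-52308741 on the minus strand of mm10 and has 11 exons. It had 502, 530 and 317 reads in the wild-type libraries and 419, 554 and 516 in the Ythdf2-/- libraries. In CPM these were 43.0, 40.4 and 29.0 against 35.7, 41.0 and 41.5, or 37.5 ± 7.43 against 39.4 ± 3.21 (SD, n = 3). The groups overlapped, and the lowest value was that of wild-type replicate 3. The log2 fold change was 0.07 ± 0.185 (SE), with a 95% interval that spans 0.772- to 1.43-fold and an adjusted p of 0.999 by edgeR. Without wild-type replicate 3 the sign turned, to -0.08 ± 0.113. Exons of Mettl3 and of Tox4, on the opposite strand, share 253 bases, and the strand setting of the authors' counting is not given in the sources used here, so some reads cannot be assigned with certainty.

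Mettl14, the RNA-binding partner of Mettl3, lies at chr3:123368295-123385990 on the minus strand, with 11 exons. It had 593, 659 and 604 reads in wild type and 562, 583 and 588 in Ythdf2-/-. All 3 wild-type values (50.7, 50.3 and 55.3 CPM) were above all 3 Ythdf2-/- values (47.9, 43.2 and 47.3 CPM). Mettl14 was the only 1 of the 8 genes whose groups did not overlap, while 10.2% of all genes tested did not overlap. The means were 52.1 ± 2.76 and 46.1 ± 2.59 CPM (SD, n = 3), and the log2 fold change of -0.18 ± 0.119 (SE) did not pass edgeR's test (adjusted p = 0.999). The 95% interval ran from 0.725- to 1.08-fold. Leaving out each library in turn gave -0.20 to -0.12, with -0.13 ± 0.0983 without wild-type replicate 3, so no single library set the direction.

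The ratio of Mettl3 to Mettl14, in reads per kilobase, was 1.10, 1.04 and 0.682 in the wild-type libraries and 0.968, 1.23 and 1.14 in the Ythdf2-/- libraries. The 2 transcripts of the catalytic pair thus stood near parity, apart from wild-type replicate 3. The mean log2 ratio was -0.12 ± 0.379 in wild type and 0.15 ± 0.178 in Ythdf2-/- (SD, n = 3), a difference of 0.27 (exact two-sided permutation test, p = 0.4, where 3 libraries against 3 cannot go below 0.1). The difference was 0.05 without wild-type replicate 3.

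Wtap, the adaptor that holds Mettl3 and Mettl14 in nuclear speckles, lies at chr17:12966799-12992543 on the minus strand. It had 1196, 1189 and 969 reads in wild type and 1125, 1245 and 1131 in Ythdf2-/-, or 102.4, 90.7 and 88.7 against 95.9, 92.2 and 91.0 CPM. The Ythdf2-/- values lay inside the wild-type range. Wtap was the steadiest of the 8 genes, with an SD of log2 CPM over the 6 libraries of 0.0747, and 1.98% of genes tested had a lower one. Its log2 fold change of -0.01 ± 0.115 (SE) had the narrowest interval of the 8, 0.817- to 1.2-fold, and without wild-type replicate 3 it was -0.05 ± 0.096.

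Zc3h13, which anchors the adaptor part in the nucleus, lies at chr14:75284306-75344433 on the plus strand, with 19 exons. Its counts were 925, 967 and 1199 in wild type and 1135, 1306 and 1190 in Ythdf2-/-. As CPM, the wild-type libraries gave 79.2, 73.8 and 109.7 and the Ythdf2-/- libraries 96.8, 96.7 and 95.7. Wild-type replicate 3 was above all Ythdf2-/- libraries and the other wild-type libraries were below all of them. The Ythdf2-/- values had a coefficient of variation of 0.598%, less than the 2.99% that counting error gives at the mean count of this gene. With all 6 libraries the log2 fold change was 0.14 ± 0.175 (SE; edgeR, adjusted p = 0.999), and it ranged from 0.03 without wild-type replicate 2 to 0.33 without wild-type replicate 3.

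Without wild-type replicate 3, the log2 fold change of Zc3h13 was 0.33 ± 0.0878 (95% interval 0.12 to 0.55; edgeR, adjusted p = 0.197), with an unadjusted p of 0.00832 in the fit across all genes, from a wild-type mean of 76.5 CPM. In that comparison of 5 libraries, 16.6% of all genes tested had an unadjusted p under 0.05, 8.03% with the higher level in Ythdf2-/-, and Zc3h13 was the only 1 of the 8 writer genes among them. The groups of Zc3h13 then no longer overlapped, as for 39.0% of all genes, 18.9% with Ythdf2-/- higher, and as for Mettl14 among the 8. With limma-voom and sample quality weights, which kept all 6 libraries and gave wild-type replicate 3 a weight of 0.0957, the value of Zc3h13 was 0.34 (adjusted p = 0.0604), where 28.1% of all genes had an unadjusted p under 0.05. Beside the marker levels of the omitted library given above, the proliferation markers of the 5 kept libraries summed to 2395.7 and 2131.2 CPM in wild type and 1619.8, 1905.3 and 1839.1 in Ythdf2-/-. Gfap was at 436.7 and 625.0 CPM against 127.4, 87.7 and 5.55. The other astroglial markers, Aqp4, S100b, Slc1a2 and Aldh1l1, overlapped between the genotypes, with Slc1a2 at 402.2 and 494.8 CPM against 564.4, 203.9 and 750.4. The part of marker differences in the value of Zc3h13 was not tested.

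Cbll1, also named Hakai, a RING-type E3 ubiquitin ligase of the adaptor part, lies at chr12:31484829-31500676 on the minus strand. It had 304, 407 and 420 reads in wild type and 419, 418 and 410 in Ythdf2-/-. The CPM were 26.0, 31.1 and 38.4 against 35.7, 31.0 and 33, and the groups overlapped. Its log2 fold change was 0.06 ± 0.18 (SE), which went to -0.06 without wild-type replicate 1 and was 0.22 ± 0.133 without wild-type replicate 3. Neither had an unadjusted p under 0.05 by edgeR.

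Virma, the large scaffold of the adaptor part, was not on the list of 8 and appears in the count tables under its older symbol 1110037F02Rik. Its levels were 100.6, 86.1 and 96.6 CPM in wild type and 101.2, 107.4 and 105.6 CPM in Ythdf2-/-. All 3 Ythdf2-/- libraries lay above the wild-type libraries, with 100.6 and 101.2 CPM as the nearest values, and the groups of 10.2% of all genes tested did not overlap. The log2 fold change of 0.15 ± 0.116 (SE) did not pass the test (edgeR, adjusted p = 0.999), and was 0.17 ± 0.103 without wild-type replicate 3. Leaving out each library in turn gave 0.09 to 0.2.

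Rbm15, an RNA-binding subunit that brings the complex to U-rich sites near methylated adenosines and to Xist, lies at chr3:107305511-107334460 on the minus strand and has 2 exons. It was the least counted of the 8 genes, with 127, 187 and 148 reads in wild type and 132, 142 and 172 in Ythdf2-/-. The CPM were 10.9, 14.3 and 13.5 against 11.3, 10.5 and 13.8, which overlap. Its log2 fold change was -0.12 ± 0.209 (SE), and its 95% interval of 0.649- to 1.31-fold is wide, with a counting error of 8.13% at its mean count. The value was -0.08 ± 0.208 without wild-type replicate 3.

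Rbm15b, the paralog of Rbm15, lies at chr9:106880928-106887075 on the minus strand as a gene of 1 exon, and 65 bases of it overlap an exon of Dcaf1 on the opposite strand. Its reads numbered 485, 493 and 654 in wild type and 480, 674 and 523 in Ythdf2-/-. The wild-type CPM were 41.5, 37.6 and 59.9 and the Ythdf2-/- CPM 40.9, 49.9 and 42.1. Wild-type replicate 3 and Ythdf2-/- replicate 2 were the 2 high libraries. Between genotypes the log2 fold change was -0.06 ± 0.21 (SE) with all libraries and turned to 0.16 ± 0.128 without wild-type replicate 3. How the authors treated reads that align to both paralogs is not given in the sources used here.

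Rbm15 stood below Rbm15b per length in every library, at a ratio of 0.492, 0.713 and 0.425 in wild type and 0.517, 0.396 and 0.618 in Ythdf2-/-. The mean log2 ratio differed by -0.08 between the genotypes (-0.91 ± 0.384 in wild type, -0.99 ± 0.323 in Ythdf2-/-, SD, n = 3; exact two-sided permutation test, p = 0.8), and by -0.24 without wild-type replicate 3.

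Mettl16 lies at chr11:74770815-74826855 on the plus strand, with 10 exons. It had 504, 609 and 325 reads in wild type and 501, 341 and 550 in Ythdf2-/-. The CPM fell into 4 libraries at 42.7 to 46.5 and 2 lower ones, wild-type replicate 3 at 29.7 and Ythdf2-/- replicate 2 at 25.2, so that each genotype held 1 low library. Mettl16 was the most variable of the 8 genes, with an SD of log2 CPM of 0.363, and 59.6% of genes tested had a lower one. Its log2 fold change was -0.09 ± 0.277 (SE), with the widest interval of the 8, 0.59- to 1.5-fold, and it ranged from -0.26 to 0.14 when each library was left out in turn, with -0.26 ± 0.246 without wild-type replicate 3.

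**Figure D2:**
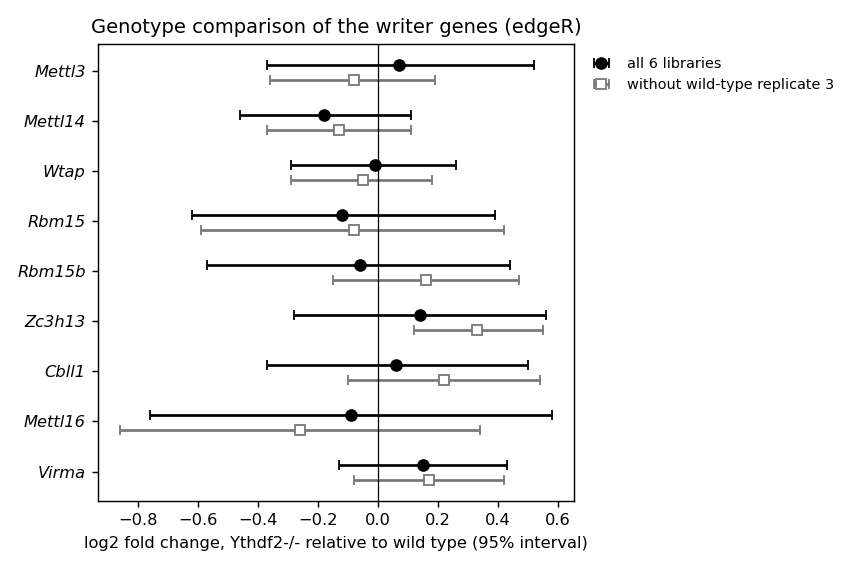
Log2 fold change (Ythdf2-/- relative to wild type, x axis) of the 8 writer genes and Virma by edgeR's quasi-likelihood fit, with 95% intervals, for all 6 libraries (filled circles) and without wild-type replicate 3 (open squares). All intervals with 6 libraries span 0; without that library only the interval of Zc3h13, 0.12 to 0.55, does not.

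Mettl16 binds hairpins in the 3′ UTR of Mat2a mRNA, which encodes the S-adenosylmethionine synthetase that makes the methyl donor of all the enzymes above. The sites are shown because they are the known mRNA targets of a writer gene whose RNA was measured alongside. The motif was searched as TACAGAGAA or TACAGAAAA on the transcript strand of the 2181-base 3′ UTR in the RefSeq transcript of mm10 and matched 6 times. The motif is in capitals with 10 bases on each side, and each site is on the minus strand.
Site 1, chr6:72434235-72434263: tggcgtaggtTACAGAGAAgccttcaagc
Site 2, chr6:72433451-72433479: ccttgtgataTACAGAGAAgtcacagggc
Site 3, chr6:72433272-72433300: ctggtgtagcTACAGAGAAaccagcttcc
Site 4, chr6:72433157-72433185: atggcgtaagTACAGAGAAgccatcacct
Site 5, chr6:72433046-72433074: caaggtgtccTACAGAAAAaccttgggtt
Site 6, chr6:72432938-72432966: gctggtgtggTACAGAGAAgccagcttgt

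The first base of the motif lay 724 bases after the stop codon at site 1 and 1508, 1687, 1802, 1913 and 2021 bases after it at the others, so 5 of the 6 fell in the last part of the UTR. Of the 3200 genes tested with a 3′ UTR at least as long, 180 (5.62%) held 1 or more matches in the first 2181 bases, and Mat2a alone had 6, the next highest number being 2. The motif was chosen as that of the known Mat2a sites, so the place of Mat2a in this count follows from the choice. A match is a run of letters and does not say that the site was bound or methylated in these cells.

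Mat2a was lower in every Ythdf2-/- library than in any wild-type library, where the groups of 10.2% of all genes tested did not overlap. It had 3353, 3818 and 3514 reads in wild type and 2845, 2279 and 3089 in Ythdf2-/-, or 287.0, 291.4 and 321.6 against 242.6, 168.7 and 248.5 CPM. Of the 2 libraries with low Mettl16, Ythdf2-/- replicate 2 had the lowest Mat2a of the 6 and wild-type replicate 3 the highest. The log2 fold change of -0.45 ± 0.184 (SE) had an unadjusted p of 0.0493 by edgeR and did not pass adjustment over all genes (adjusted p = 0.999; DESeq2, adjusted p = 0.499), and it was -0.28 without Ythdf2-/- replicate 2 and -0.39 ± 0.18 without wild-type replicate 3. An antisense gene, Particl, shares 211 exon bases with Mat2a on the opposite strand.

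Levels were compared between genes as RPKM, that is, CPM per kilobase of exon, with the merged exon length of each gene in RefSeq. Mettl3 (19.0 ± 2.59) and Mettl14 (18.7 ± 1.54) had the highest mean RPKM over the 6 libraries (SD, n = 6), followed by Zc3h13 (14.9 ± 2.14), Wtap (14.2 ± 0.756) and Mettl16 (14.2 ± 3.24). Cbll1 (8.12 ± 1.07), Rbm15b (7.37 ± 1.33) and Rbm15 (3.79 ± 0.513) were lower, below the median RPKM of all genes tested, 10.1. Each gene's range over the libraries overlapped that of the next gene in this order, except that Rbm15b (6.12 to 9.74) lay wholly above Rbm15 (3.22 to 4.36). The highest mean was 5.01 times the lowest, and the 8 genes ranked above 27.5% (Rbm15) to 68.9% (Mettl3) of the genes with a length.

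This order depends on the length used. The authors' gene table gives Wtap a length of 2744.7 bases and Rbm15b one of 3016, against merged exons of 6562 and 6148 bases. With those lengths Wtap came first at 34.1 RPKM and Rbm15b moved from the seventh place to the fourth at 15, and only Rbm15, the lowest, kept its place. By genotype the RPKM of Mettl3 was 18.5 ± 3.68 in wild type and 19.5 ± 1.59 in Ythdf2-/-, that of Mettl14 was 19.9 ± 1.05 and 17.6 ± 0.985, and that of Rbm15 was 3.94 ± 0.548 and 3.63 ± 0.534 (SD, n = 3).

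**Figure D3:**
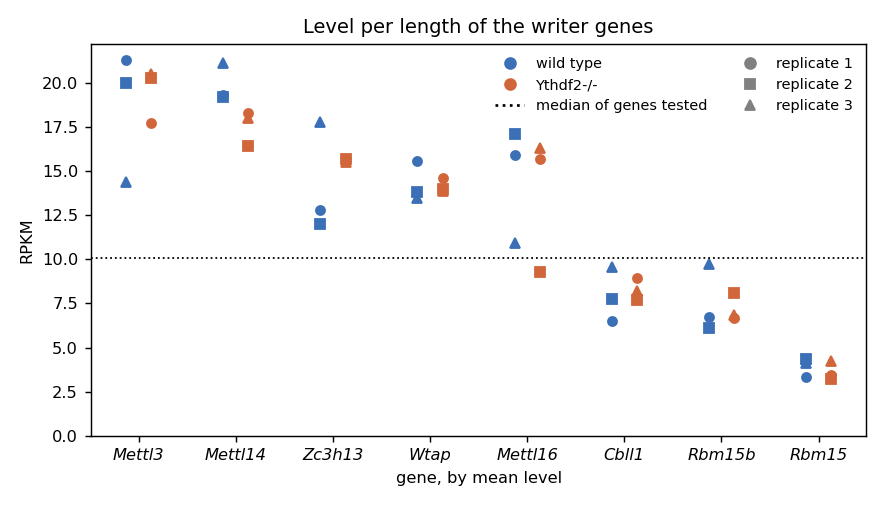
RPKM (y axis from 0) of the 8 writer genes in each input library, ordered by mean level, wild type in blue and Ythdf2-/- in orange with a marker shape per replicate, and the median of all genes tested as a dotted line at 10.1. Mettl3, Mettl14, Zc3h13 and Wtap are above the line in all 6 libraries, and Cbll1, Rbm15b and Rbm15 are below it in all 6.

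The 8 genes did not share 1 profile across the libraries. After centring log2 CPM on each gene's mean, Zc3h13 and Cbll1 were the closest of the 28 pairs, with a root mean square difference of 0.129. Mettl14 and Wtap (0.133) and Rbm15b and Zc3h13 (0.136) followed. Mettl14 and Wtap varied least of the 8 genes (SD of log2 CPM 0.119 and 0.0747). Such a distance is small for any genes that vary little, so theirs does not show a shared profile. Rbm15b and Mettl16 were the farthest apart (0.532), and the catalytic pair Mettl3 and Mettl14 differed by 0.275. In wild-type replicate 3, Rbm15b (0.42), Zc3h13 (0.27) and Cbll1 (0.25) were above their means and Mettl3 (-0.39) and Mettl16 (-0.34) below. Ythdf2-/- replicate 2 also set genes apart, with Mettl16 at -0.57 and Mettl3 and Rbm15b at 0.11 and 0.16, and Mettl3 and Mettl16 differed by 0.316 over the 6 libraries. Wild-type replicate 3 held the lowest proliferation and the highest astroglial marker levels, and their part in these differences was not tested. These distances are a description over 6 libraries.

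**Figure D4:**
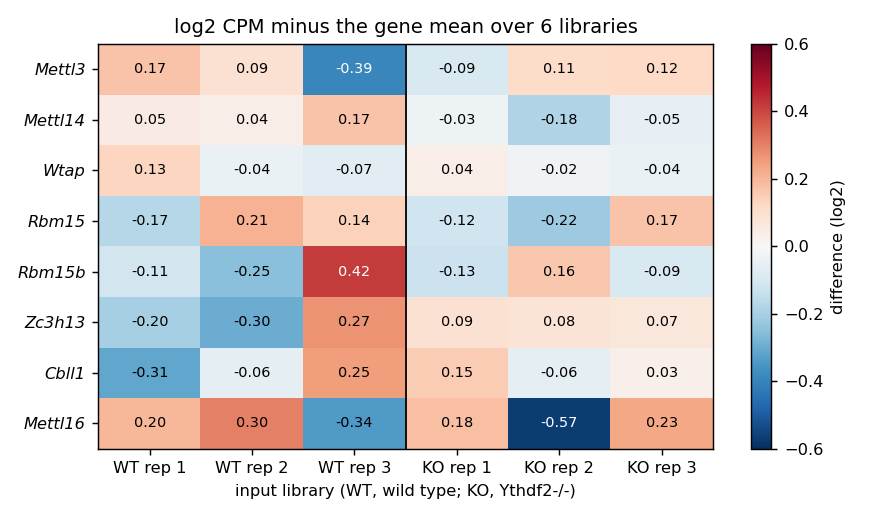
Log2 CPM of each writer gene (rows) minus its mean over the 6 input libraries (columns; WT, wild type; KO, Ythdf2-/-), red above and blue below the mean. The extreme values are Mettl16 in Ythdf2-/- replicate 2 (-0.57) and Rbm15b (0.42) and Mettl3 (-0.39) in wild-type replicate 3.

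The genes whose profile was nearest to that of Mettl3, among the 9011 genes at least as variable, were Hint2 (root mean square difference 0.0448), Rps6ka6 (0.0456) and Prkag1 (0.0467). All 3 were lowest in wild-type replicate 3, at -0.46, -0.41 and -0.41. For Mettl14, the nearest of 11975 genes were Ubp1 (0.0251), Dnajc17 (0.036) and Far1 (0.0372), each highest in wild-type replicate 3, at 0.22, 0.22 and 0.21. With 6 libraries and so many candidates, such closeness is only a description.

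The m6A consensus core GGACT was counted on the transcript strand of the longest RefSeq coding transcript of each gene. All 8 writer transcripts held it, as did 92.9% of the 12489 genes tested with such a transcript, where the median was 1.05 per kilobase. Mettl3 had the highest density, 1.98 per kilobase from 4 matches, 3 of them coding, and 88.3% of genes had a lower one. Wtap held 7 matches, 6 of them in the 4272-base 3′ UTR of the transcript used, and Zc3h13 held 7, all in the coding sequence. That Wtap transcript, the longest of 4, has a coding sequence of only 456 bases, and the split in the others was not examined. Rbm15, Mettl16 and Mettl14 had 2 each, at 0.612, 0.736 and 0.762 per kilobase. The density is a property of the sequence, and no m6A measurement is reported here.

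The other genes of the m6A pathway gave 0 calls in either direction, in 4 lists with 2, 11, 8 and 7 genes tested, by edgeR with adjustment over all genes. Since the same test called 0.0% of all genes, these counts do not set the lists apart. Among m6A demethylases, Fto, which had the higher CPM, showed 153.4, 170.8 and 243.2 CPM in wild type and 177.5, 225.2 and 169.1 in Ythdf2-/-, with a log2 fold change of 0.01 ± 0.22 (SE) that became 0.23 ± 0.15 without wild-type replicate 3. Alkbh5, the other mRNA demethylase, was 100.3, 101.1 and 109.4 CPM in wild type and 117.2, 128.1 and 119.9 in Ythdf2-/-. Its groups did not overlap, as for 10.2% of all genes, and its log2 fold change was 0.23 ± 0.111 (edgeR, adjusted p = 0.999). Without wild-type replicate 3 the value of Alkbh5 was 0.27 ± 0.0892 (edgeR, adjusted p = 0.237), with an unadjusted p of 0.021. In that comparison 16.6% of all genes had an unadjusted p under 0.05 by edgeR, 8.03% with the higher level in Ythdf2-/-. The median of both demethylases went from 0.12 to 0.25.

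Of 12 m6A readers other than Ythdf2, 11 were tested and 0 passed, as for all genes, with a median log2 fold change of -0.02 (-0.04 without wild-type replicate 3). Igf2bp1 was not tested, with 0 or 1 read in each library. The reader with the highest CPM, Hnrnpa2b1, an RNA-binding protein proposed as a nuclear reader, had a log2 fold change of -0.15 ± 0.196 (SE), or -0.29 ± 0.13 without wild-type replicate 3. Igf2bp3, a protein that stabilizes methylated mRNA, showed 84.7, 63.5 and 32.7 CPM in wild type and 8.7, 21.3 and 18.0 CPM in Ythdf2-/-. Its groups did not overlap, as for 10.2% of all genes, and wild-type replicate 3 was the lowest of its group. Igf2bp3 had a log2 fold change of -1.91 ± 0.46 (edgeR, adjusted p = 0.999), with an unadjusted p of 0.00538 in the fit across all genes, and DESeq2, which called 0.603% of genes, gave an adjusted p of 0.00349. Without wild-type replicate 3 it was -2.20 ± 0.353 (edgeR, adjusted p = 0.151). In that comparison 2 readers, Igf2bp3 and Igf2bp2, had an unadjusted p under 0.05 by edgeR, against 16.6% of all genes. Igf2bp2, named after its values were seen, was -1.07 there and -0.72 with 6 libraries. It ranged from -1.07 to -0.34 when each library was left out in turn.

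The S-adenosylmethionine cycle (8 genes, median 0.02) supplies the methyl donor and clears its product. With 6 libraries 1 of the 8, Mat2a, had an unadjusted p under 0.05, against 3.63% of all genes. Without wild-type replicate 3 the list median was -0.09, and 2 of the 8 had such a p, against 16.6% of all genes. These were Ahcy (-0.38, against -0.04 with 6 libraries) and Mtrr (-0.45, against -0.21), named after their values were seen, and no longer Mat2a. Leaving out each library in turn gave -0.38 to 0.21 for Ahcy and -0.45 to -0.02 for Mtrr. Ahcyl1, a relative of S-adenosylhomocysteine hydrolase with the highest CPM of the list, had a log2 fold change of 0.25 ± 0.362 (SE), or 0.04 ± 0.33 without wild-type replicate 3. Among 7 genes of other RNA adenosine methyltransferases (median 0.02), Pcif1, which methylates the cap-adjacent adenosine, had both the highest CPM, which is not per length, and the smallest p. Its levels were 67.8, 66.9 and 62.0 CPM in wild type and 75.1, 90.5 and 71.5 CPM in Ythdf2-/-, with no overlap, as for 10.2% of all genes. Its log2 fold change was 0.27 ± 0.136 (edgeR, adjusted p = 0.999), or 0.17 to 0.34 with each library left out in turn. When wild-type replicate 3 was left out it was 0.23 ± 0.127, the list median was -0.16, and 1 gene, Trmt61a, had an unadjusted p under 0.05 by edgeR, against 16.6% of all genes. Trmt61a, named after its values were seen, was -0.65 there and -0.29 with 6 libraries. It ranged from -0.65 to -0.01 when each library was left out in turn.

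**Figure D5:**
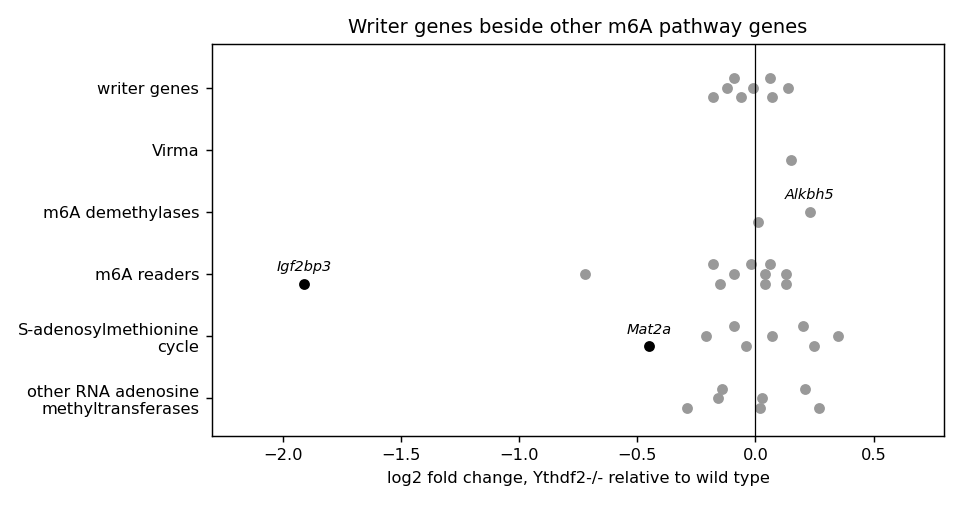
Log2 fold change (Ythdf2-/- relative to wild type, x axis) of each tested gene by list (y axis), with black points for an unadjusted p under 0.05 by edgeR and grey points otherwise. The 8 writer genes lie between -0.18 and 0.14, and the 2 black points are Igf2bp3 (-1.91) and Mat2a (-0.45), neither of which passed adjustment by edgeR.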

How the data were processed

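The 6 input libraries were analysed, and the 6 m6A-IP samples were not analysed here. Groups and replicate numbers came from the sample labels. The methods describe alignment to mm10 with TopHat, and the submitters' processing notes list Bowtie2 2.2.9, RSEM 1.2.15 and featureCounts. The authors deposited raw counts per gene (whole numbers, not normalized), which all tests used. The authors also deposited expected counts, TPM and FPKM per gene in a table with RSEM columns, while the methods name RPKM from Cuffnorm. These expected counts summed to 1.97% to 2.40% of the raw counts, so the deposited FPKM values rest on few reads and served only as an alternative, and TPM was not used. The counter's strand setting is not given in the sources used here.

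Counts were filtered with filterByExpr, scaled by TMM and fitted with edgeR 4.0.16 (glmQLFit with the robust option, glmQLFTest; genotype as the only term) in R 4.3.3. Benjamini-Hochberg adjustment ran over all 13112 genes tested, with a threshold of 0.05. Standard errors were the log2 fold change over the root of F. Log2 CPM used a prior count of 2. Alternatives changed the scaling (RLE, library totals), the filter, the test (DESeq2 1.42.0; limma 3.58.1 as voom, with or without sample quality weights, or on log2 of the deposited FPKM plus 1 or 0.1) or the terms (replicate number, or whether a library held more than 3 reads on Y-linked genes), or left out each library. Other steps used Python 3.11.15 (numpy 2.4.6, pandas 2.3.3, scipy 1.17.1). The tests were checked on simulated counts. Lengths, positions and sequences came from RefSeq on GRCm38.p6 (mm10), and 24378 of 24525 symbols had a length. Intervals cover 95%.

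The members and the lists were chosen with earlier results of these data known. Named genes were the 8 writer genes, Ythdf2, Virma, Mat2a, the gene of highest mean CPM and the gene of smallest p of each pathway list, and the 3 genes nearest in profile to Mettl3 and to Mettl14. With 3 libraries a group, p-values measure only the spread between these samples, and an exact permutation test cannot go below 0.1.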

Additional observations from a re-analysis of the deposited data

How the results depend on the processing

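Among 138 alternative fold changes of the 8 writer genes, 115 kept their direction, 7 were 0 at 2 decimals, 16 turned and 0 passed the test, and the smallest adjusted p was 0.0604 (Zc3h13, 0.34, limma-voom with sample quality weights, where 28.1% of genes had an unadjusted p under 0.05). With all libraries kept, those that turned were Mettl3 -0.13 and Rbm15b 0.11 with quality weights, Mettl16 0.09 with a Y-linked term, and, from the deposited FPKM, Mettl14 0.24 without a filter, Wtap 0.21 or 0.24 and Cbll1 -0.88 or -1.90 by pseudocount. Mat2a was 0.36 or 0.37 and Ythdf2 0.32 from FPKM, against -0.45 and -2.66 from counts. Mettl14, Mettl16 and Rbm15 had a mean FPKM below the minimum of 1 that the filter set. The other 6 that turned came from leaving out each library, which gave -0.08 to 0.18 for Mettl3, -0.20 to -0.12 for Mettl14, -0.05 to 0.05 for Wtap, -0.24 to -0.03 for Rbm15, -0.19 to 0.16 for Rbm15b, 0.03 to 0.33 for Zc3h13, -0.06 to 0.22 for Cbll1, -0.26 to 0.14 for Mettl16 and 0 or 1 writer gene with an unadjusted p under 0.05 (1 also with quality weights). The causes were not tested.

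Over all genes, DESeq2 called 39 higher and 49 lower, quality weights 78 and 73, and the Y-linked term 13 lower. RLE factors, a minimum of 10 counts and no filter called 1 lower each, the FPKM fits 2, 1 and 2, and leaving out a library 0 to 2. Ythdf2 was called (1) in each of RLE, the minimum of 10, no filter, DESeq2, quality weights and the Y-linked term, at -2.67 to -2.61 or -2.75, and when wild-type replicate 3 was left out (adjusted p = 0.0203; 0 or 1 over the libraries). The order by RPKM kept 1 gene in place with the authors' lengths or FPKM and 3 to 8 without 1 library. The log2 ratio of Rbm15 to Rbm15b differed by -0.24 to 0.13 without 1 library.

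The replicate number as a block left 0 genes and 0 writer genes called, with 0.16 for Zc3h13. The deviations of same-numbered libraries were negatively correlated (r = -0.25, -0.24 and -0.39). With so few libraries in each genotype, deviations within a genotype offset one another, so these r values depend on each other. They cannot decide whether the numbers pair the samples. At this depth counting error was highest, among the 8 genes, for Rbm15 (8.13%).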

Other observations

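The deposited FPKM table gave the writer genes levels unlike those from the counts. Mettl3 had a mean FPKM of 51.0 there and Mettl14 one of 0.993, although the raw counts of the same libraries gave 19.0 and 18.7 RPKM. The expected counts behind these FPKM values were 22.0 to 31.0 reads for Mettl3 and 0 to 2 for Mettl14, with a median of 1.5 over the 8 genes and 6 libraries. Mettl16 was listed at 0 or 1 expected count, against 325 to 609 counted reads.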
